A study of Mus musculus with 12 samples.

Results

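Expression of 6 genes of the neurotrophin system was followed across the amygdalae of individual mice. They were the ligands Bdnf and Ntf3, the Trk receptor genes Ntrk2 and Ntrk3, the p75NTR gene Ngfr and the sortilin gene Sort1. They were chosen by name, from the 47729 genes of the deposited table, through the GENCODE M21 symbols of the Ensembl identifiers. Amygdala mRNA was taken from 12 females of the inbred strain C57/BL6, with 1 stranded library per mouse, all sequenced in a single run. The mice had passed the elevated plus maze (EPM) at 9 weeks of age, the light/dark box (LD) at 10 weeks and the social interaction test (SIT), in 3 chambers, at 11 weeks. The labels predict an anxiety state for 11 mice. Mice 3, 7 and 12 are less anxious, mice 1, 4, 8 and 11 are anxious, and mice 2, 6, 9 and 10 are more anxious, while mouse 5 has no group and enters no comparison between groups. Apart from the predicted state, the groups share strain, sex, age and handling. The authors set these groups from the second principal component of the same expression data, so the groups are not independent of gene expression. Nor do they follow behavior in every mouse. Of the 11, more anxious mouse 6 had the highest open-arm time in the EPM (29.2%) and the most time in the light of the LD (46.6%). More anxious mice 2, 9 and 10 had the lowest open-arm times, at 2.33%, 4.30% and 3.25%.

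Neurotrophins are secreted growth factors of neurons, made as larger precursors that furin and related convertases cut. Mature BDNF binds TrkB (Ntrk2) and neurotrophin-3 (Ntf3) binds TrkC (Ntrk3), and these receptor tyrosine kinases signal through the Ras to ERK, PI3K to Akt and phospholipase C gamma routes. The uncut precursors bind p75NTR (Ngfr) together with sortilin (Sort1), which also carries proBDNF into the regulated secretory route. In the amygdala, BDNF and TrkB are known for their part in the learning and extinction of fear. Both Trk receptor genes also give truncated forms without the kinase, and astrocytes make mainly truncated TrkB. The gene-level counts used here pool these forms, so no statement on kinase-bearing receptor can be made.

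The total per mouse ran from 31745630 to 45142355 estimated counts in the 11 mice, with a median of 36578626. Behind the values lay between 33 and 97 counts per mouse for Ngfr, 76 to 262 for Ntf3, 797 to 1328 for Bdnf, 4162 to 8059 for Ntrk3, 10312 to 15881 for Sort1 and 15396 to 22940 for Ntrk2. All 6 genes passed the filter on low counts. Values are given as CPM, a gene's count relative to the total of its library, scaled between mice with TMM factors. Of the markers of glutamatergic (7), basolateral amygdala (6), GABAergic (9) and central amygdala or striatal-type neurons (10), none was at 0 in all mice or had a mean under 1 CPM. This is bulk tissue, so fewer cells of a type and less RNA per cell cannot be told apart. P-values measure the spread between mice, of which each gave 1 library.

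Bdnf lies at chr2:109674700-109727007 on the plus strand of GRCm38 and Ntf3 at chr6:126101412-126166910 on the minus strand. Ntrk2 spans chr13:58806569-59133970 (plus), Ntrk3 chr7:78175959-78738012 (minus), Ngfr chr11:95568818-95587735 (minus) and Sort1 chr3:108284082-108361511 (plus). Exons of Bdnf share 896 bases with the antisense gene Gm45346, which has no row in the table under that annotation, and exons of Sort1 share 338 bases with the antisense gene Gm12523, which had at most 2 counts in a mouse. Whether the counting used the strand is not given in the sources used here.

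Bdnf is transcribed from several starts, each with its own 5′ exon, and all of them add to 1 gene-level value here. RefSeq's table for GRCm38.p6 holds 7 windows for Bdnf. The one shown, chr2:109692186-109692435 on the plus strand, is the stretch of 250 bases before the start at 109692436, and it overlaps no annotated Bdnf exon. It is printed because it alone among the 7 held the core of the cAMP response element (CRE, letters TGACG on either strand), through which CREB is known to couple neuronal activity to Bdnf transcription. The capitals mark this core, read here as its reverse complement, CGTCA, whose first letter lies 35 bases before the start.

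Bdnf window: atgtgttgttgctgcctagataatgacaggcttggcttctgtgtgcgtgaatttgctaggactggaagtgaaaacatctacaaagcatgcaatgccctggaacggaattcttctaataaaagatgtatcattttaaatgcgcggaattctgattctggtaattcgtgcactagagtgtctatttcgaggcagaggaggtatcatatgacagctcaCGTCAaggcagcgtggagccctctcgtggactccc

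Of all 32851 windows of that length in the table, 17.8% held the core. The full palindrome TGACGTCA, which contains the core, was in 1.55% of all windows and in none of the 11 windows of these genes. The table has 2 windows for Ntf3, 1 for Ntrk2, 1 for Ngfr and none for Ntrk3 or Sort1. The counts do not say which Bdnf start was in use.

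Per kilobase of all annotated exons joined, the mean level over the 11 mice was highest for Sort1, at 44.2 ± 3.91 CPM per kb (SD, n = 11), followed by Ntrk2 at 25.3 ± 2.82, Ntrk3 at 5.24 ± 0.906, Bdnf at 4.39 ± 0.513, Ntf3 at 2.43 ± 0.644 and Ngfr at 0.432 ± 0.148. The ranges of Ntrk3 (3.82 to 6.72) and Bdnf (3.34 to 5.07) overlapped, as did those of Bdnf and Ntf3 (1.16 to 3.45), while the other neighbours in this order did not overlap. The place of the Trk receptors depended on the length used. With the median transcript length in place of the joined exons, Ntrk2 stood at 169 CPM per kb and Ntrk3 at 160, above Sort1 at 49.2, and Bdnf stood at 6.99, Ntf3 at 2.98 and Ngfr at 0.432. There the ranges of Ntrk2 (149 to 202) and Ntrk3 (116 to 205) overlapped, and no other neighbours did. In both orders the mean levels of the ligands were below the Trk receptors and sortilin, and Ngfr was lowest. For 20 annotated Ntrk3 transcripts and 10 of Ntrk2 the median length was 990 and 2884 bases, against 30170 and 19292 bases of joined exons.

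Genes differed in how far mice stood apart. The coefficient of variation of CPM over the 11 mice was 8.85% for Sort1, 11.1% for Ntrk2, 11.7% for Bdnf, 17.3% for Ntrk3, 26.5% for Ntf3 and 34.2% for Ngfr. Counting alone would give 13.3% for Ngfr, 7.97% for Ntf3 and at most 3.12% for the others. Among 2265 genes with a mean CPM within a factor of 2 of that of Ntrk3, 85.5% varied less between mice than Ntrk3 did. The corresponding share was 27.9% for Sort1, 45.4% for Bdnf, 48.8% for Ntrk2, 73.8% for Ntf3 and 74.7% for Ngfr.

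**Figure D1:**
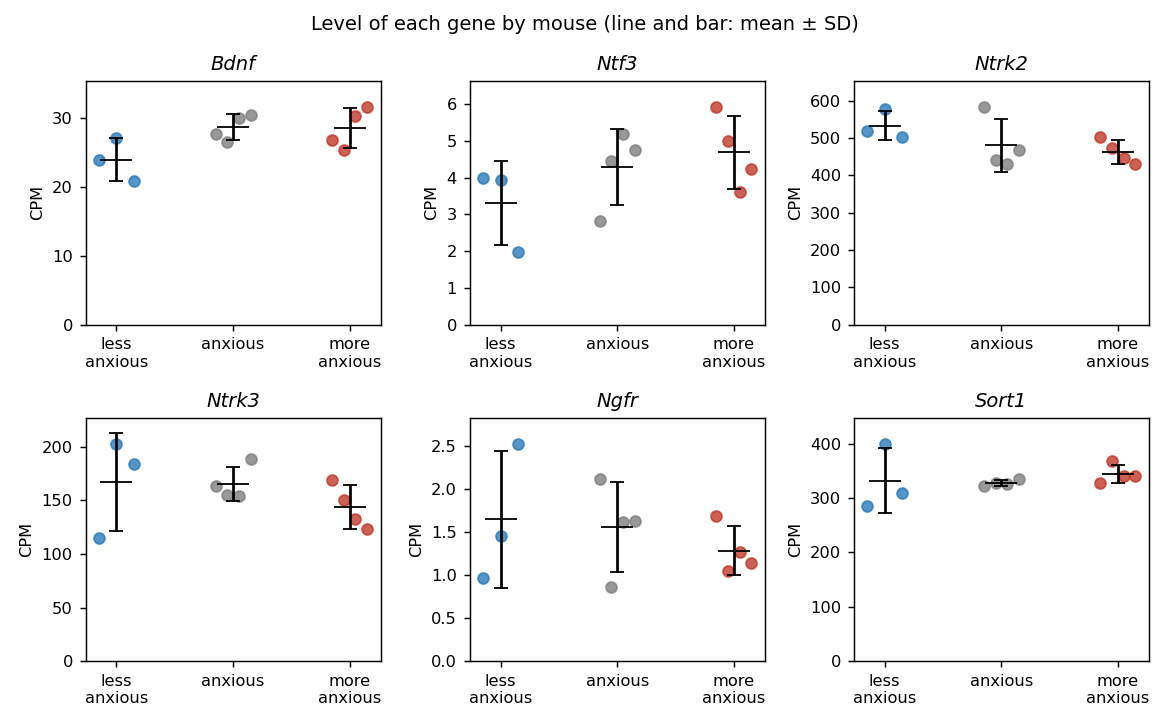
CPM (y axis, from 0) of the 6 genes in each mouse of the less anxious (n = 3), anxious (n = 4) and more anxious (n = 4) groups. Points are mice, and the line and bar give mean ± SD. The groups overlap in every panel except Ntrk2 between less and more anxious mice, where 502.70 stands just above 502.46 CPM.

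The first comparison asked whether the ligands differed between the predicted anxiety states. Bdnf was at 23.9, 27.1 and 20.8 CPM in less anxious mice 3, 7 and 12, at 27.6, 26.5, 30.0 and 30.4 CPM in anxious mice 1, 4, 8 and 11, and at 26.9, 25.4, 30.2 and 31.5 CPM in more anxious mice 2, 6, 9 and 10. The lowest Bdnf levels belonged to less anxious mice 12 and 3, but mouse 7 of that group lay within the range of the others. The fitted level in more anxious mice was 1.19-fold that of less anxious mice (95% confidence interval 0.993 to 1.42, log2 0.25, SE 0.12, edgeR adjusted p = 0.591). The anxious mice were at 1.20-fold (1.002 to 1.44) the less anxious level, with an unadjusted p of 0.0473 and an edgeR adjusted p of 0.987. Leaving out single mice moved this log2 difference from 0.26 to between 0.17 (without mouse 12) and 0.43 (without mouse 7), and the unadjusted p stayed under 0.05 in 3 of 11 such fits. That was the only unadjusted p under 0.05 among the 6 genes there, where 4.74% of all 26963 genes tested had one. More anxious mice were at 0.989-fold the level of anxious mice (0.839 to 1.17).

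Ntf3 was measured at 3.98, 3.92 and 1.98 CPM in less anxious mice 3, 7 and 12, at 2.81, 4.44, 5.17 and 4.75 CPM in anxious mice 1, 4, 8 and 11, and at 5.91, 5.00, 3.62 and 4.24 CPM in more anxious mice 2, 6, 9 and 10. The groups overlapped, and mouse 12 was lowest for Ntf3 as it was for Bdnf. More anxious mice were at 1.35-fold the less anxious level, but the interval ran from 0.905 to 2.02 (log2 0.44, SE 0.27, edgeR adjusted p = 0.707). Without mouse 12 the log2 difference was 0.18, and without mouse 3 it was 0.76.

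TrkB, the BDNF receptor, had Ntrk2 levels of 519, 577 and 502.70 CPM in less anxious mice 3, 7 and 12, 582, 442, 429 and 467 CPM in anxious mice 1, 4, 8 and 11, and 502.46, 474, 447 and 429 CPM in more anxious mice 2, 6, 9 and 10. Every less anxious mouse was above every more anxious one, though mice 12 and 2 were nearly equal, and anxious mouse 1 had the highest level of all. Of 15891 genes with a mean of at least 1 CPM, 4.61% were lower in more than in less anxious mice without overlap. More anxious mice were at 0.866-fold the less anxious level (0.728 to 1.03, log2 -0.21, SE 0.12, edgeR adjusted p = 0.666). Without mouse 7 the log2 difference was -0.11 (edgeR adjusted p = 0.922). Most markers of astrocytes, microglia and endothelial cells or pericytes were also lower in these mice. Of these markers edgeR called 0 and DESeq2 called 1, an astrocyte marker. For comparison, 8.84% of all genes had an unadjusted p under 0.05 in this contrast with edgeR. The summed level of the 8 astrocyte markers was 3673 to 4384 CPM in less anxious, 3096 to 3867 in anxious and 3149 to 3638 in more anxious mice, all 8 had a lower fitted level in more than in less anxious mice (median log2 -0.24), 2 of them with an unadjusted p under 0.05, and none was at 0. Of the microglia markers 8 of 8 were fitted lower (median log2 -0.18, 1 with an unadjusted p under 0.05), and of the endothelial and pericyte markers 8 of 9 (-0.19, 4 with an unadjusted p under 0.05). The microglia sum was 323 to 381, 290 to 341 and 271 to 339 CPM in less anxious, anxious and more anxious mice, the endothelial and pericyte sum was 260 to 322, 233 to 271 and 223 to 283 CPM, and none of either list was at 0. In the same contrast 9 of 10 central amygdala and striatal-type markers (median log2 -0.59) and 7 of 8 cholinergic markers (-0.82) were also fitted lower. Each of these lists had 1 gene lower with an unadjusted p under 0.05. Glutamatergic markers went the other way (6 of 7 higher, 0.44), and oligodendrocyte precursor markers were split, 3 higher and 3 lower. The 9 GABAergic markers were split as well, 5 higher and 4 lower (0.044), 1 of the higher with an unadjusted p under 0.05. Fitted lower too were 7 of 8 oligodendrocyte (-0.089), 6 of 7 meningeal fibroblast (-0.38) and 6 of 8 choroid plexus and ependyma markers (-0.26). Of the last list, 2 were lower with an unadjusted p under 0.05, and DESeq2 called 1. The part of all these lists in the Ntrk2 values was not tested.

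TrkC, the neurotrophin-3 receptor, had Ntrk3 levels of 115, 203 and 184 CPM in less anxious mice 3, 7 and 12, 163, 155, 154 and 188 CPM in anxious mice 1, 4, 8 and 11, and 169, 150, 133 and 123 CPM in more anxious mice 2, 6, 9 and 10. Both the highest and the lowest level belonged to less anxious mice, so the spread within that group (SD 46.0 CPM) was larger than the differences between group means of 167, 165 and 144 CPM. More anxious mice were at 0.841-fold the less anxious level (0.665 to 1.06, log2 -0.25, SE 0.16, edgeR adjusted p = 0.711). Single less anxious mice decided its size, since the log2 difference was -0.42 without mouse 3 (edgeR adjusted p = 0.332), -0.13 without mouse 7 (edgeR adjusted p = 0.934) and -0.16 without mouse 12 (edgeR adjusted p = 0.871).

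Ngfr, whose product p75NTR is best known from basal forebrain cholinergic neurons, was low, with 0.969, 1.46 and 2.53 CPM in less anxious mice 3, 7 and 12, 2.12, 0.862, 1.62 and 1.64 CPM in anxious mice 1, 4, 8 and 11, and 1.69, 1.05, 1.27 and 1.14 CPM in more anxious mice 2, 6, 9 and 10. No order of the groups was visible, and the fitted difference between more and less anxious mice (0.788-fold, 0.467 to 1.33, edgeR adjusted p = 0.845) turned to a log2 of 0.08 without mouse 12. Mouse 12, with the highest Ngfr level, also had the highest summed level of the 8 cholinergic neuron markers, at 102 CPM, against 62.3 to 87.3 CPM in the other mice. Most of that sum was Ache, at 55.6 to 79.6 CPM over the 11 mice, while medians of the other markers ran from 0.352 (Chat) to 1.58 CPM (Zic4). None of the 8 was at 0 in all mice, 2 had a mean under 1 CPM, and their part was not tested.

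Sort1, the sortilin gene, had the smallest coefficient of variation of the 6. It was at 285, 399 and 310 CPM in less anxious mice 3, 7 and 12, 323, 327, 325 and 335 CPM in anxious mice 1, 4, 8 and 11, and 328, 368, 341 and 340 CPM in more anxious mice 2, 6, 9 and 10. The anxious mice lay close together (SD 5.33 CPM), whereas less anxious mice held both the lowest and the highest level (SD 60.0 CPM). More anxious mice were at 1.02-fold the less anxious level, with the narrowest interval of the 6 genes (0.880 to 1.18, edgeR adjusted p = 0.975).

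Across the 3 groups together, edgeR's quasi-likelihood test called 0 of the 6 genes at an adjusted p under 0.05 (smallest adjusted p = 0.842, for Bdnf). None had an unadjusted p under 0.05 either, and DESeq2 called 0. Of 26963 genes, edgeR called 0.00742% across the groups and DESeq2's likelihood ratio test 1.05% of the 17784 it adjusted, and 6.35% had an unadjusted p under 0.05 with edgeR. In the single contrasts, edgeR and DESeq2 also called 0 of the 6. The shares of all genes called by edgeR were 0.0445% between more and less anxious mice, 0.00371% between anxious and less anxious mice and 0% between more anxious and anxious mice, and 8.84% and 4.57% of genes had an unadjusted p under 0.05 in the first and the last of these, where none of the 6 did. The contrasts share groups, so they are not independent of each other.

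**Figure D2:**
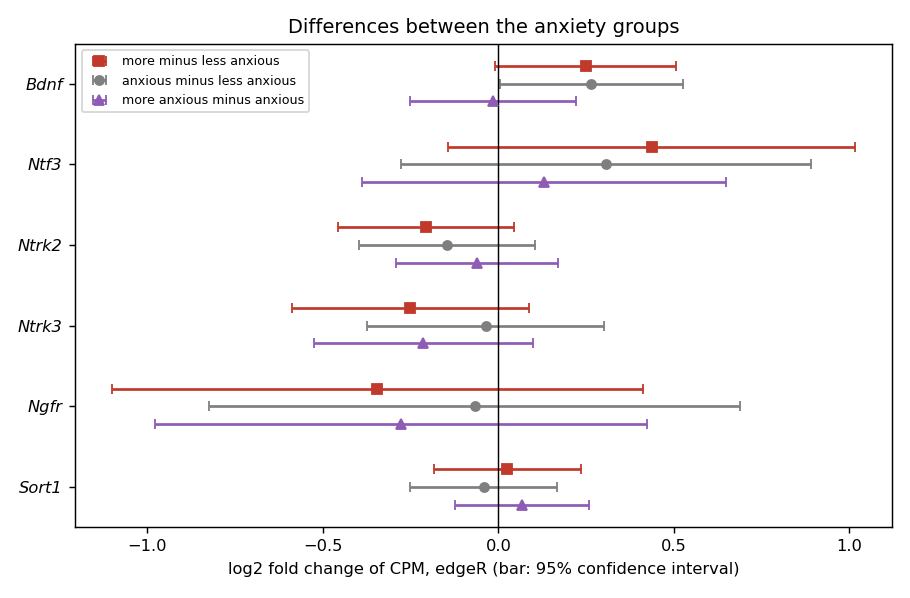
Fitted log2 fold changes of CPM (x axis) of the 6 genes in the contrasts of the anxiety groups, with 95% confidence intervals. All intervals but that of Bdnf between anxious and less anxious mice include 0, and the Ngfr intervals are wide, from -1.10 to 0.41 between more and less anxious mice.

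The second comparison asked whether the genes followed what each mouse did, as a number, whatever its group. The labels give 7 measures, open-arm time (percent) and total entries in the EPM, the percentages of time and distance in the light of the LD, and the box:zone ratio of the SIT over the first 3, 5 and 10 min. In the SIT, the box is close to the cup of an unfamiliar mouse and the zone is farther from it, so a high ratio means relatively more time close by. Among the 42 relations of 6 genes with 7 measures, Ntrk3 had the only unadjusted p-values under 0.05, and it had them at all 3 time points of the SIT.

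Ntrk3 was lower where the box:zone ratio was higher. In order of the 3 min ratio, mouse 7 (ratio 0.236) had 203 CPM of Ntrk3, mouse 12 (0.691) had 184, mouse 6 (0.797) had 150, mouse 2 (0.801) had 169 and mouse 1 (0.943) had 163. Further up, mouse 11 (0.989) had 188 CPM, mouse 8 (1.15) had 154, mouse 10 (1.45) had 123, mouse 3 (1.70) had 115 and mouse 9 (1.84) had 133. Among these mice, the lowest Ntrk3 levels were those of the mice with the highest ratios. They came from the less anxious (mouse 3) and more anxious groups (mice 9 and 10) alike. Mouse 5, which is not in this listing, had a ratio between those of mice 2 and 1. Its Ntrk3 level was nonetheless low, at 125 CPM (TMM factors of all 12 mice). Mouse 4 has no ratio at 3 min.

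Per SD of the 3 min ratio (0.490), Ntrk3 was 0.854-fold as high (95% confidence interval 0.796 to 0.916), a log2 slope of -0.23 (SE 0.047). The unadjusted p was 0.000278, and with edgeR's adjustment over all 26651 genes tested the slope did not pass (adjusted p = 0.190). With DESeq2 the slope was called, at a log2 of -0.23 (DESeq2 adjusted p = 0.00417). Of all genes, edgeR called 0.015% and DESeq2 1.05% at 3 min, and 3.11% had an unadjusted p under 0.05 with a lower level at a higher ratio. The slope kept its sign without each mouse in turn, from -0.25 to -0.19. It was -0.25 with the leading component of the expression data (PC1) as a covariate, -0.21 with ranks of the ratio and -0.21 with mouse 5 included. The edgeR adjusted p-values of these fits were 0.239, 0.385 and 0.382.

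At 5 min the log2 slope of Ntrk3 was -0.17 per SD (SE 0.059, unadjusted p = 0.0116, edgeR adjusted p = 0.631), and 3.03% of genes had such a p in that direction. At 10 min it was -0.16 (SE 0.061, unadjusted p = 0.0177, edgeR adjusted p = 0.533), against 3.76% of genes. The ratios of 1 mouse at the different times overlap, so they do not count as separate support. Mouse 3 had the highest ratio at 5 min (2.12) and 10 min (2.62) and the lowest Ntrk3 level. Without it the slopes were -0.099 (unadjusted p = 0.127) and -0.079 (unadjusted p = 0.228), while that at 3 min was -0.19.

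**Figure D3:**
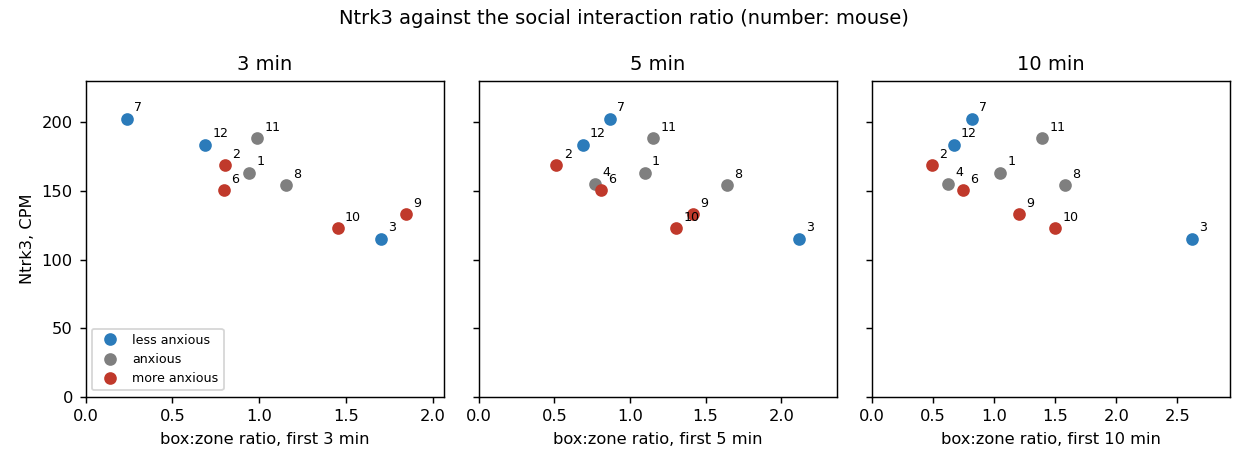
Ntrk3 CPM (y axis) against the box:zone ratio (x axis) over the first 3 min (10 mice), 5 min and 10 min (11 mice), with the number of each mouse and its group by color. At 3 min the level goes from 203 CPM in mouse 7 to between 115 and 133 CPM in mice 3, 9 and 10, and at 5 and 10 min mouse 3 stands apart on the right.

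Several marker lists had negative median slopes with the 3 min ratio, though edgeR called 0 of their genes. Of 10 markers of central amygdala and striatal-type neurons, 8 had a lower fitted level at a higher ratio (median log2 slope -0.25 per SD, against 0.0037 for all genes), none with an unadjusted p under 0.05, and none was at 0. Their summed level was 370 to 921 CPM in less anxious, 300 to 585 in anxious and 339 to 722 in more anxious mice. In the order of the 3 min ratio given for Ntrk3, this sum ran at 769, 921, 722, 339, 585, 305, 300, 383, 370 and 499 CPM. Of 8 cholinergic markers 7 had a negative slope (median -0.18, none with an unadjusted p under 0.05). Of 8 pituitary markers, 4 of which had a mean under 1 CPM, 6 had one (median -0.37, again none), and their sum was 4.18 to 4.88 CPM in less anxious, 3.17 to 57.7 in anxious and 2.64 to 3.29 in more anxious mice. Of 8 choroid plexus and ependyma markers 5 had one (median -0.17, 2 with an unadjusted p under 0.05). In that list 1 marker with an unadjusted p under 0.05 was higher at a higher ratio. The list's sum was 23.5 to 28.1, 17.1 to 20.3 and 13.3 to 22.4 CPM in less anxious, anxious and more anxious mice. By the 3 min ratio, the pituitary sum ran at 4.80, 4.88, 3.29, 2.64, 6.45, 18.9, 3.17, 3.01, 4.18 and 3.00 CPM. The choroid plexus and ependyma sum ran at 26.4, 28.1, 22.4, 18.6, 18.4, 20.3, 17.5, 16.4, 23.5 and 13.3 CPM in that order. Other lists did not fall, and 6 of 7 glutamatergic markers were higher at a higher ratio (median 0.070, 2 with an unadjusted p under 0.05). None of these markers was at 0 in all mice. Their part in the Ntrk3 values was not tested.

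The other neurotrophin genes had no unadjusted p under 0.05 for any measure with edgeR or DESeq2, and the smallest of their 35 edgeR p-values was 0.0981. edgeR called 0 of the 42 relations, and DESeq2 called that of Ntrk3 at 3 min alone. For Bdnf all slopes were between -0.091 and 0.066 log2 per SD of a measure. Those of Sort1 lay between -0.065 and 0.036, those of Ntrk2 between -0.077 and 0.062 and those of Ntf3 between -0.15 and 0.0082. Ngfr at 3 min had a slope as steep as that of Ntrk3 (-0.23), but with an interval from -0.52 to 0.059. Ntrk3 itself had a slope of 0.11 with open-arm time and between -0.019 and 0.013 with total entries and the light-box measures. edgeR's calls over all genes were 0% for open-arm time, total entries and distance in the light, 0.00742% for time in the light, 0.0111% at 5 min and 0.0223% at 10 min. Whether the slope of Ntrk3 with the SIT differs from its slope with the EPM or LD was not tested.

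**Figure D4:**
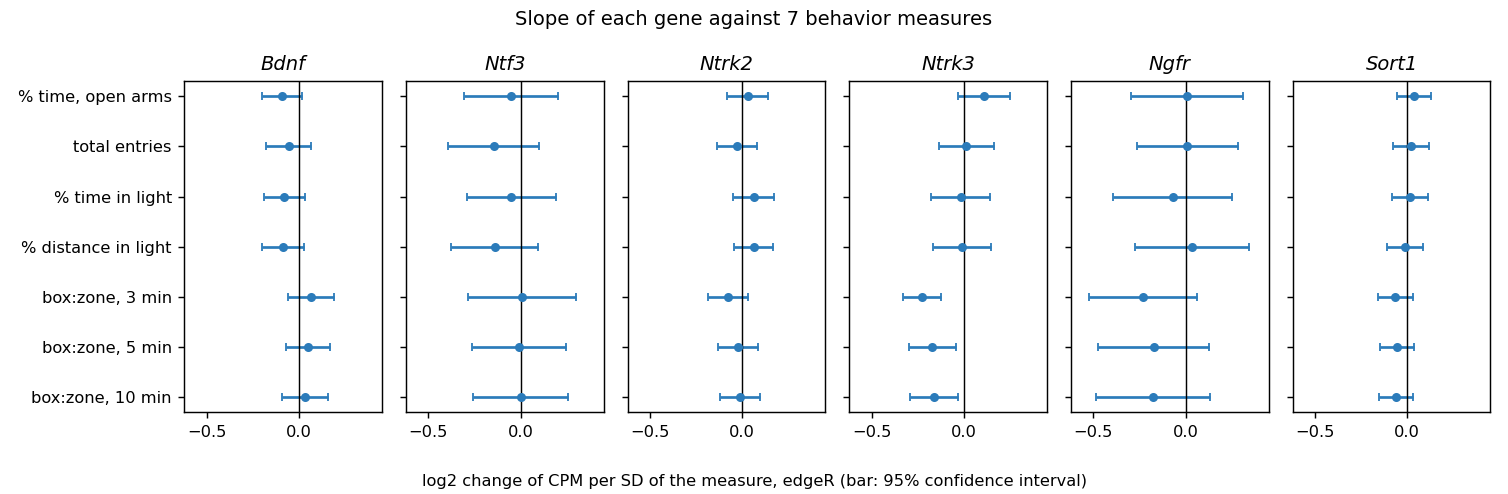
Log2 change of CPM per SD of each of 7 behavior measures (x axis) for the 6 genes, with 95% confidence intervals. The intervals of Ntrk3 with the box:zone ratio at 3 min (-0.33 to -0.13), 5 min and 10 min lie below 0, and every other interval includes 0.

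The genes whose log2 CPM ran most like that of each gene over the 11 mice were taken from the protein-coding genes with a mean of at least 10 CPM (9960 or 9961 compared), as a description. Mice of all groups and depths share these correlations. For Ntrk3 they were Lyst (Pearson r = 0.917), Furin (r = 0.908) and Cep350 (r = 0.908). Furin makes the convertase that cuts neurotrophin precursors. Bdnf was most like Abcf3 (r = 0.904), Prkrip1 (r = 0.885) and Atf4 (r = 0.855), the last a transcription factor of the stress response. Ntf3 was most like Adcy8 (r = 0.924), an adenylyl cyclase, BC029722 (r = 0.904) and Hspa2 (r = 0.902). Ntrk2 was most like Gfra1 (r = 0.930), a co-receptor for the growth factor GDNF, Pacs2 (r = 0.930) and Stac2 (r = 0.909). Ngfr was most like Copg1 (r = 0.889), Zkscan16 (r = 0.882) and Plekho2 (r = 0.862), and Sort1 most like Foxk1 (r = 0.938), Ep400 (r = 0.934) and Cx3cl1 (r = 0.908).

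Among the 6 genes themselves no pair reached the r values above. Those had been picked as the highest of all genes compared, so this sets the 6 genes apart in no way. Ngfr and Ntrk3 had r = 0.604, and 4.46% of genes were more like Ntrk3 than Ngfr was. Bdnf and its receptor gene Ntrk2 had r = -0.416, Ntf3 and Ntrk3 had r = -0.145 (Spearman rho -0.064), and with Sort1 r was 0.336 for Bdnf and 0.251 for Ntf3. The ligands Bdnf and Ntf3 had r = 0.539 but a Spearman rho of 0.145, and mouse 12 was lowest for both.

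The other genes of the neurotrophin pathway were taken from 6 lists with 114 genes, of which 112 were tested. Across the 3 groups, edgeR called 0 of the 112. An unadjusted p under 0.05 was found for 8 (7.14%), near the 6.35% of all genes, with 6 higher and 2 lower in more than in less anxious mice. DESeq2 called Usf2 and Junb there. Between more and less anxious mice edgeR called 0 of the 112 and DESeq2 called 3, which were Usf2, Junb and Vgf.

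Among the other ligands and receptors (7 genes, median log2 difference between more and less anxious mice -0.081, against 0.0036 for all genes), 3 were fitted higher, 4 lower and none had an unadjusted p under 0.05 across the groups. Sorcs3, a sortilin relative, was at 57.7 ± 2.80 CPM in less anxious mice (SD, n = 3), 49.1 ± 4.32 in anxious (n = 4) and 51.0 ± 5.45 in more anxious mice (n = 4).

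Of 15 tested genes of proneurotrophin processing and release, 5 were fitted higher and 10 lower between more and less anxious mice (median log2 -0.091). Pcsk1, a convertase of the regulated secretory route, was at 22.9 ± 1.32, 22.0 ± 3.32 and 19.3 ± 1.34 CPM in less anxious, anxious and more anxious mice (edgeR adjusted p = 0.854 across the groups).

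Of 40 Trk adaptors and kinases, 18 were fitted higher and 22 lower (median log2 -0.018). Pik3ca, a catalytic subunit of PI3K, was at 55.0 ± 7.96, 42.7 ± 7.34 and 42.7 ± 3.04 CPM in the less anxious, anxious and more anxious mice (edgeR adjusted p = 0.586 across the groups). Mapk3, which makes the kinase ERK1, was at 218 ± 44.4, 243 ± 8.45 and 288 ± 27.2 CPM (edgeR adjusted p = 0.704). Of 20 partners and effectors of p75NTR, 9 were fitted higher and 11 lower (median log2 -0.028). Bex3, a p75NTR-binding protein, was at 159 ± 10.4, 199 ± 31.4 and 203 ± 8.75 CPM (edgeR adjusted p = 0.698), and Lingo1, a co-receptor of p75NTR in the Nogo receptor complex, at 223 ± 52.7, 248 ± 24.2 and 282 ± 29.9 CPM (edgeR adjusted p = 0.814).

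Of 14 regulators of Bdnf transcription, 4 were fitted higher and 10 lower (median log2 -0.073). Usf2, an E-box factor that binds a Bdnf promoter, was at 46.4 ± 11.5, 48.8 ± 13.8 and 71.6 ± 17.4 CPM, a log2 difference of 0.73 between more and less anxious mice (SE 0.16, edgeR adjusted p = 0.174). Across the 3 groups the edgeR adjusted p was 0.349 and that of DESeq2 0.00917. Bdnf itself differed by a log2 of 0.25 in the same contrast.

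The list with the largest median was that of 16 genes known to respond to BDNF, many of them also induced by neuronal activity in general, of which 13 were fitted higher and 3 lower in more than in less anxious mice (median log2 0.34, against 0.0036 for all genes). Vgf, a secreted neuropeptide precursor, was at 196 ± 29.3, 222 ± 13.8 and 273 ± 40.9 CPM (edgeR adjusted p = 0.546 across the groups). Junb, an immediate early gene, was at 27.4 ± 16.3, 48.8 ± 14.4 and 58.8 ± 12.1 CPM (across the groups, edgeR adjusted p = 0.692, DESeq2 adjusted p = 0.0362). Between more and less anxious mice, the adjusted p of Vgf was 0.278 with edgeR and 0.0461 with DESeq2. For Junb these were 0.359 and 0.00693. The median rested on mouse 10. Without it, 9 of 16 were fitted higher and the median was 0.0045, and without less anxious mouse 3 it was 0.16. Glutamatergic neuron markers had the same direction, with 6 of 7 fitted higher (median log2 0.44), 4 of them with an unadjusted p under 0.05, and 0 called by edgeR against 1 by DESeq2. Their summed level was 2808 to 4219 CPM in less anxious, 3241 to 3666 in anxious and 3374 to 4085 in more anxious mice, and none was at 0. Basolateral amygdala markers went the other way, with 5 of 6 fitted lower (median log2 -0.16), none with an unadjusted p under 0.05. Their sum was 743 to 851, 611 to 766 and 429 to 894 CPM in the same order, and none was at 0. The part of these markers in the response genes was not tested.

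**Figure D5:**
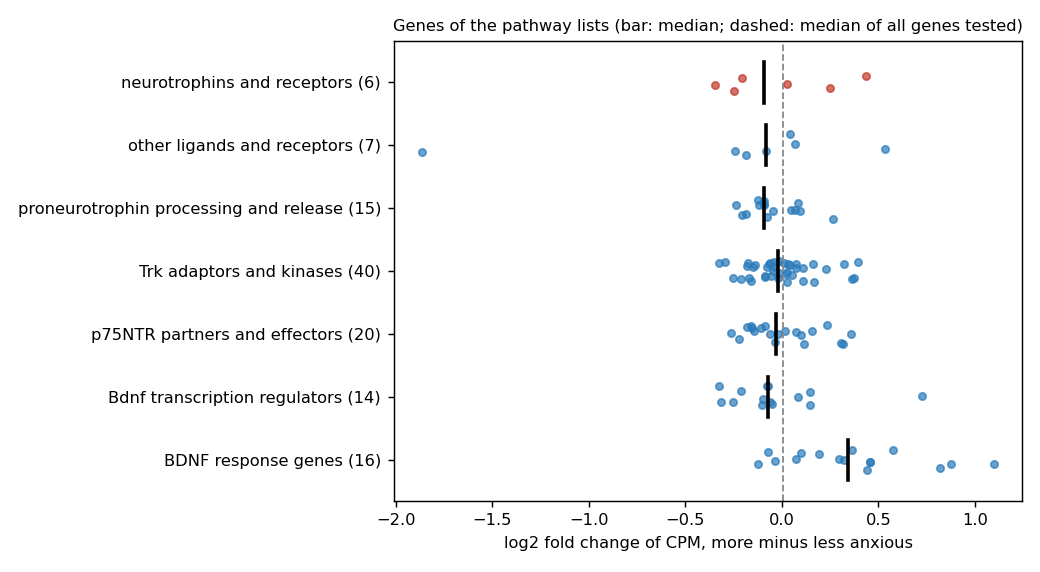
Log2 fold change of CPM between more and less anxious mice (x axis) of each gene tested in the neurotrophin set and the 6 pathway lists, with the number of genes in brackets, the list median as a bar and the median of all genes dashed. The BDNF response genes have a median of 0.34, and those of the other lists lie between -0.091 and -0.018.

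At the 3 min ratio, edgeR called 0 of the 112 pathway genes, and 9 (8.04%, against 3.11% of all genes) had an unadjusted p under 0.05 with a lower and 4 with a higher level at a higher ratio. The 9 included 5 of the 14 regulators of Bdnf transcription, which were Crtc1, Crebbp, Srf, Npas4 and Carf, with log2 slopes between -0.26 and -0.091. Another regulator, Usf2, went the other way (log2 slope 0.27, unadjusted p = 0.0105). DESeq2 called Furin, lower at a higher ratio (log2 slope -0.34, SE 0.078, edgeR adjusted p = 0.253, DESeq2 adjusted p = 0.0131), and Hras, a small GTPase of the ERK route, higher (0.21, SE 0.051, edgeR adjusted p = 0.272, DESeq2 adjusted p = 0.0352). These genes were named after their values were seen. At 5 and 10 min, 2 of the 14 regulators (Npas4 and Carf) had an unadjusted edgeR p under 0.05, both lower at a higher ratio. Over all 112 pathway genes, 7 (6.25%) were lower with such a p at each time, against 3.03% and 3.76% of all genes. Higher with such a p were 2 at 5 min and 4 at 10 min. DESeq2 called 0 pathway genes at either time. Furin kept its direction there (log2 slopes -0.29 and -0.31), with DESeq2 adjusted p-values of 0.264 and 0.149. In the order of the 3 min ratio given for Ntrk3, Furin ran at 53.4, 36.5, 41.3, 44.4, 38.3, 45.5, 35.9, 23.3, 19.1 and 31.6 CPM. Of the mice listed, those with the lowest Ntrk3 also had the lowest Furin. Bdnf in the same order ran at 27.1, 20.8, 25.4, 26.9, 27.6, 30.4, 30.0, 31.5, 23.9 and 30.2 CPM. Its log2 slope with this ratio was 0.066 per SD (SE 0.058, edgeR unadjusted p = 0.278).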

How the data were processed

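Amygdala mRNA of 12 mice was measured by RNA-seq. The authors trimmed single-end reads of 75 bp, used STAR alignments to mm10 for quality control, estimated transcripts with Salmon and summed them to genes with tximport. The authors deposited these estimated counts (expected counts) as whole numbers without normalization. Versions and the annotation release are not given in the sources used here. Symbols, coordinates and exon lengths came from GENCODE M21, in which 47310 of the genes matched. CPM and log2 CPM (prior count 2) used TMM factors.

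Groups came from the labels. Groups were compared with edgeR 4.0.16 (R 4.3.3; quasi-likelihood F-test, robust, PC1 as covariate, genes with 10 or more reads summed over 11 mice), and each measure was fitted as a standardized number without a covariate. Benjamini-Hochberg adjusted p-values over all genes under 0.05 were called. PC1 came from DESeq2's variance-stabilizing transform. DESeq2 1.42.0 (likelihood ratio and Wald tests) was an alternative, beside other size factors, filters, covariates and codings and each mouse left out. Procedures were tested on simulated data. Tables and plots used Python 3.11.15, pandas 2.3.3, scipy 1.17.1 and matplotlib 3.10.9.

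The genes and lists were chosen with earlier results of these data known. Named were the 6 genes, from each list those called across the groups and the 2 with the smallest p, and the 3 genes most like each of the 6. Some genes that this rule names are not reported here. The 95% confidence intervals come from the edgeR fits and include the spread between mice. Their precision is set by 11 mice, or 10 for the ratio at 3 min.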

Additional observations from a re-analysis of the deposited data

Results flagged for a closer look

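Mouse 5 has no group in the labels and enters no main fit above. All 6 genes were detected in it, above the limit of 3 counts that a count of 0 allows. With TMM factors of all 12 mice, Bdnf was at 28.4 CPM (other mice 21.1 to 31.5), Ntf3 at 4.69 CPM (2.01 to 5.89), Ntrk2 at 492 CPM (429 to 582), Ntrk3 at 125 CPM (115 to 204) and Sort1 at 354 CPM (284 to 402), each within the range of the other mice. Ngfr, at 0.548 CPM from 18 counts, was below that range (0.861 to 2.56). No mouse stood apart from its group in the 12 sets of 4 values that were tested, and the group of 3 was not tested.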

How the results depend on the processing

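With DESeq2, 1 of the 42 behavior relations was called in place of 0 (Ntrk3 at 3 min, log2 slope -0.2318, adjusted p = 0.00417), and 2 pathway genes were called across the groups in place of 0. Under the other 5 alternatives of the behavior fits and with each mouse left out, the count stayed at 0. The 4 group comparisons had 0 calls among the 6 genes under all alternatives run. Without each mouse in turn, the 3 min slope of Ntrk3 ran from -0.2547 to -0.1909, with edgeR adjusted p-values from 0.185 to 0.526, and pathway calls stayed at 0.

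Between more and less anxious mice, Ngfr turned to 0.08424 without mouse 12 (-0.34 with all mice) and ran from -0.6272 upward, and Sort1 to -0.02406 without mouse 3 and -0.009783 without mouse 12 (0.025 with all mice, up to 0.1644 without mouse 7). Bdnf kept its sign, from 0.16 without mouse 12 to 0.41 without mouse 7. Of the 42 slopes, 25 kept their sign under all alternatives and 17 changed it at least once, among them none of Ntrk3 with the box:zone ratio. Of the 18 genes most like each gene, 7 remained when ranked by Spearman's rho, and levels per length moved with the length used. No paired analysis was possible because the labels give no replicate numbers that pair mice of different groups. Ngfr rested on 33 to 97 counts per mouse, and counting alone gives 13.3% of variation there, against 34.2% between mice.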
